A study of Homo sapiens with 24 samples.

Results

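The 1816 regions described here are places where MYOD was found in the peak lists of TWIST2-depleted RD cells and not in those of control cells, although the surrounding chromatin carried histone H3 lysine 27 acetylation (H3K27ac) in both conditions. They were chosen by a rule on the deposited peak lists. The 4 MYOD lists were merged into 88541 regions, with peaks that share at least 1 bp joined, and the 4 H3K27ac lists were merged in the same way into 55905 regions. A region was selected when both TWIST2 KD lists and neither control list had a MYOD peak there and when it overlapped one of the 27442 H3K27ac regions with a peak in all 4 H3K27ac lists, called constant H3K27ac regions or, where they hold a selected region, hosts. Gain of MYOD in this sense was seen at 8059 of the 88541 regions, or 9.1%, and 1816 of these 8059 lay in constant H3K27ac. The same 1816 made up 4.05% of the 44824 MYOD regions that overlapped constant H3K27ac. MYOD presence, and the presence of H3K27ac in each list, therefore chose the regions, are given as a description and are not tested.

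RD is an established human cell line of fusion-negative rhabdomyosarcoma, a soft tissue tumour with features of skeletal muscle that lacks the PAX-FOXO1 gene fusion of other rhabdomyosarcomas. Chromatin immunoprecipitation with sequencing was compared between RD cells with TWIST2 KD and control RD cells, for MYOD, for H3K27ac and for SMARCA4, with 2 libraries per group. A further pair of Ty1 libraries came from RD cells with 3xTy1-TWIST2, a TWIST2 protein with a Ty1 epitope tag, which the labels place in neither condition. The labels put the MYOD, H3K27ac and Ty1 samples in a set named RD-1 and the SMARCA4 samples in a set named RD-2, without saying what sets them apart, how TWIST2 was depleted, or whether replicates were separate cultures. P-values below therefore measure only the spread between libraries, and a smaller share of cells with a peak and a weaker peak in every cell cannot be told apart. The TWIST2 level after knockdown was not measured in these files.

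MYOD is a basic helix-loop-helix transcription factor that binds E-box sequences and drives the skeletal muscle programme; rhabdomyosarcoma cells make it but do not complete differentiation. TWIST2 is a basic helix-loop-helix factor as well, binds related E-boxes, shares E-protein partners with MYOD and is known for opposing myogenic differentiation. H3K27ac marks active enhancers and promoters, and SMARCA4 (also BRG1) is a catalytic subunit of SWI/SNF complexes, which use ATP to move nucleosomes.

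Depth set the frame for these values. The H3K27ac, MYOD and Ty1 lists gave positions without counts, which leaves the depth of those 10 libraries unknown, while the SMARCA4 lists stated 36095336 and 41066933 tags in the KD libraries, against 46690705 and 44810601 in the control libraries. The KD lists held 48022 and 46822 H3K27ac peaks, against 36679 and 34932 in the control lists, and 52510 and 48003 MYOD peaks, against 44974 and 43381 in the control lists. SMARCA4 peaks numbered 12518 and 14676 in the KD lists, against 11835 and 25013 in the control lists, so control replicate 2 stood apart. MYOD peaks had 1 fixed width in each list, 213 and 225 bp in the KD lists, against 159 and 179 bp in the control lists, and so carry no information on the breadth of binding. H3K27ac peaks varied in width. No gene was assigned to any region, because positions were those of build hg19 and no annotation of that build was used here, and marker genes of the RD line were not checked.

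The gained regions were the smaller part of MYOD gain. Of the 8059 MYOD regions gained anywhere, 22.5% lay in constant H3K27ac (Wilson 95% interval 21.6 to 23.5%, which like all intervals below covers counting error only). A further 29.8% lay in H3K27ac regions found in both KD lists and neither control list, 32.7% met no H3K27ac peak of any library, and 15.0% met other H3K27ac regions. MYOD regions with a peak in both control lists and neither KD list had a different setting, since 3078 of 4791 (64.2%) lay in constant H3K27ac. Only these 3078 are called lost regions below. Within constant H3K27ac, lost regions were 6.87% of all MYOD regions, more than the 4.05% that were gained.

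Gained regions were found across the chromosomes at similar shares. They formed between 3.32% of the MYOD regions in constant H3K27ac on chromosome 12 and 4.80% of those on chromosome 22, with counting intervals of 2.65 to 4.15% and 3.68 to 6.24%. The number of gained regions per lost region was lowest on chromosome X, at 0.368, and highest on chromosome 22, at 0.788. The 1816 gained regions sat in 1787 hosts, which were 6.51% of constant H3K27ac regions. A single gained region was present in 1758 hosts and a pair in 29 hosts.

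Within the KD lists the gained regions held middle positions. The deposited lists do not state what orders them, so a list percentile, where 100 is the first entry, describes rank only. The median percentile of gained regions was 53.5 in KD replicate 1 and 53.3 in KD replicate 2. Constant MYOD regions are here the 12947 in all 4 MYOD lists that lay in constant H3K27ac. They had medians of 76.8 and 75.7 in the same KD lists, and regions gained outside constant H3K27ac had 40.3 and 38.4. Lost regions held places in the control lists close to those of gained regions in the KD lists, with medians of 54.6 and 53.6. Mean percentiles of single gained regions ran from 0.683 to 99.5. The centres of the 2 KD peaks at a gained region were a median of 49 bp apart, against 42 bp at constant regions.

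Regions just outside the rule held middle to low list positions. Regions with a peak in both KD lists and 1 control list, just outside it, numbered 3038 and had a median percentile of 55.2, against 52.0 for the gained regions on the same mean over both KD lists. Regions with a peak in 1 KD list and no control list numbered 6575, with a median of 40.3. A further 405 gained regions met H3K27ac of 3 of the 4 lists and had a median of 49.6.

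Gained regions often lay close to MYOD binding that control cells already had. The nearest control MYOD peak was a median of 1179 bp away, with a middle range of 211 to 5211 bp. It was within 100 bp at 293 gained regions (16.1%), within 500 bp at 36.7% and within 5000 bp at 74.1%. At those 293 the KD and control peaks were neighbours that did not share a base, so a small shift of a called position would place such a region inside or outside the rule. Lost regions were also close to MYOD peaks of the other condition, with a median of 551.5 bp to the nearest KD peak and 48.4% within 500 bp. Regions gained outside constant H3K27ac were much farther from control peaks, at a median of 14246 bp, and 3.73% of them were within 500 bp.

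**Figure D1:**
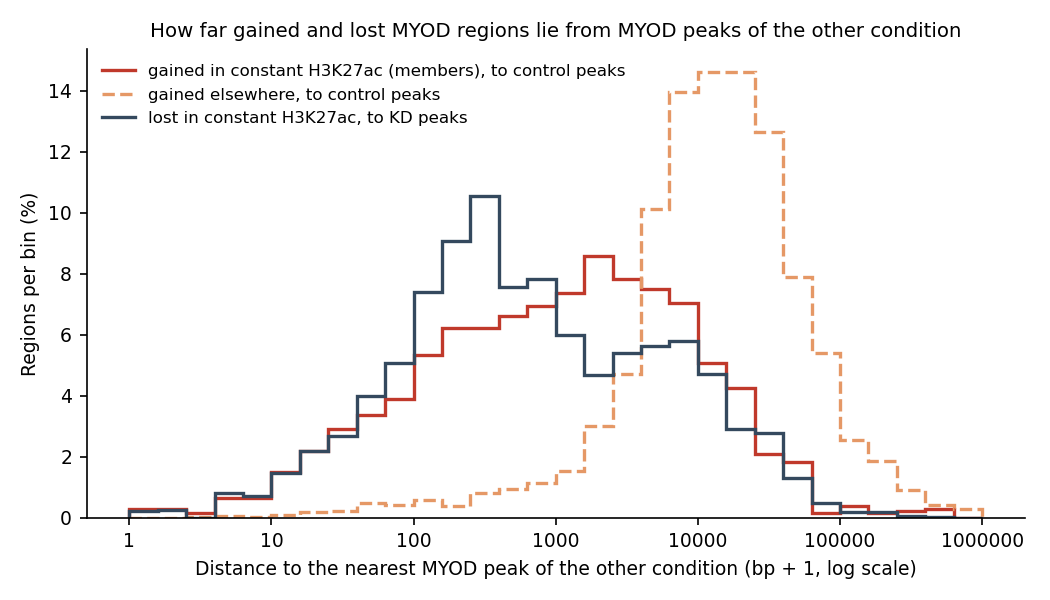
Distance in bp (plus 1, log scale) from each region to the nearest MYOD peak of the other condition, as a percentage of regions per bin. Gained regions in constant H3K27ac centre on 1179 bp from control peaks and lost regions on 551.5 bp from KD peaks, while regions gained elsewhere centre on 14246 bp.

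Most hosts held other MYOD peaks, of control cells, of KD cells or of both. Of the 1787 hosts, 1247 (69.8%) held a MYOD peak of at least 1 control library elsewhere in the host, and 540 (30.2%) held none. Of all 27442 constant H3K27ac regions, 3141 held none, so a control MYOD peak was missing more often in hosts than in constant H3K27ac as a whole. Hosts held 2704 and 2607 KD peaks, of which 888 and 791 lay outside the gained regions, against 1422 and 1377 control peaks. A constant MYOD region shared the host at 384 hosts (21.5%), and a lost region shared it at 332 hosts (18.6%). Of all constant H3K27ac regions, 44.1% held a constant MYOD region and 10.8% a lost region. Constant H3K27ac as a whole held 26485 and 24633 KD peaks, against 29120 and 28110 control peaks. With the gained regions set aside, hosts also held fewer KD than control MYOD peaks, at 888 and 791 against 1422 and 1377. All these counts follow in part from the rule and were not tested.

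The gained regions sat nearer the margins of their hosts than constant binding did. Their centres lay in the middle 0.2 of the host length at 32.3%, against 36.1% of lost regions and 47.2% of constant regions. They lay in the outer 0.1 at either end at 4.02%, against 2.66% of lost and 1.10% of constant regions. The median distance to the nearest host edge was 987.5 bp for gained, 1099 bp for lost and 1107 bp for constant regions. The hosts had a median merged width of 3086 bp, against 3206.5 bp for hosts of lost regions, 2920 bp for hosts of constant MYOD regions and 2725 bp for all constant H3K27ac regions. A merged width of at least 10000 bp was found at 104 hosts (5.82%) and at 2.86% of all constant H3K27ac regions.

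H3K27ac peaks reached the gained regions more often in the KD libraries, although every host had a peak in all 4 lists. The rule has a part in this, since a region had to be reached by the H3K27ac peak of at least 1 library and the KD lists held more such peaks, so reach is given as a description with no test. A library's own H3K27ac peak reached 98.7% and 98.4% of the gained regions in the KD libraries, against 90.1% and 88.9% in the control libraries. Both KD libraries were above both control libraries. The mean was 98.5 ± 0.195% in KD and 89.5 ± 0.857% in control (SD, n = 2 each), a difference of 9.0 percentage points. Without MYOD control replicate 1 it was 5.77 points.

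At lost regions the order was turned round. There the own peak reached 97.1% and 96.8% in KD, against 99.0% and 99.1% in control, a difference of -2.08 points. Constant MYOD regions were nearly always reached, at 99.5% and 99.4% in KD and 98.8% and 98.6% in control, a difference of 0.745 points. The KD minus control difference at gained regions exceeded that at lost regions by 11.1 points (6.94 without MYOD control replicate 1) and that at constant regions by 8.26 points, again with no test. Over all MYOD regions in constant H3K27ac the difference was 1.247 points.

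The difference came from a minority of gained regions. At 1546 of them (85.1%) the H3K27ac peak of all 4 libraries reached the region. At 126 (6.94%) the peaks of both KD libraries and neither control library did, and at 13 (0.716%) the reverse was seen. Among lost regions these patterns were found at 6 (0.195%) and at 53 (1.72%), and among constant regions at 57 (0.44%) and 21 (0.162%). The 126 met the rule through KD peaks alone. There the host had acetylation in control cells, and the control peak stopped short of the place where MYOD was gained.

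The acetylated stretch of the hosts was longer in KD. The H3K27ac length of a host is the summed length of one library's peaks in it. Its median over the 1787 hosts was 2749 and 2751 bp in the KD libraries, against 2276 and 2222 bp in the control libraries. The libraries did not overlap, and the means were 2750 ± 1.41 bp in KD and 2249 ± 38.2 bp in control (SD, n = 2 each). The difference was 501 bp, a ratio of 1.22, and came to 321 bp without MYOD KD replicate 2. Regions that the KD peaks alone reached add to this difference by their choice, so no test is given.

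With only the 1546 gained regions that the H3K27ac peaks of all 4 libraries reached, a restriction chosen after seeing the data, the difference was smaller. Their 1525 hosts had 2642 and 2638 bp in KD, against 2343 and 2281 bp in control, a difference of 328 bp and a ratio of 1.14. The libraries did not overlap, and a two-sided exact permutation gave p = 0.33, a floor set by having 2 libraries in each group. No such comparison can pass 0.05, and the statements here describe whether the libraries overlap. Libraries that do not overlap are the outcome that gives this floor, so this is no stronger than the test. Over all 27442 constant H3K27ac regions the KD and control libraries did not overlap either. Hosts of lost regions under the same restriction had a ratio of 1.05 and hosts of constant regions 1.07. The KD minus control difference was 188.5 bp larger at gained than at lost hosts (exact permutation p = 0.33, 2 and 2 libraries).

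Part of the ratio of 1.22 was shared by H3K27ac in general. All 27442 constant H3K27ac regions had median lengths of 2360 and 2339 bp in KD, against 2200 and 2151.5 bp in control, a ratio of 1.08. Hosts of constant MYOD regions had a ratio of 1.07 and hosts of lost MYOD regions 1.04, with medians at lost hosts of 2842 and 2806.5 bp in KD, against 2743.5 and 2708 bp in control. Hosts of gained minus hosts of lost regions came to -74.25 bp in KD and to -476.75 bp in control, on the means of 2 libraries. The KD minus control difference over all hosts was 402.5 bp larger at gained than at lost hosts, 232.25 bp without MYOD KD replicate 1 and 240 bp without MYOD KD replicate 2. It was 331 bp larger than at hosts of constant regions.

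**Figure D2:**
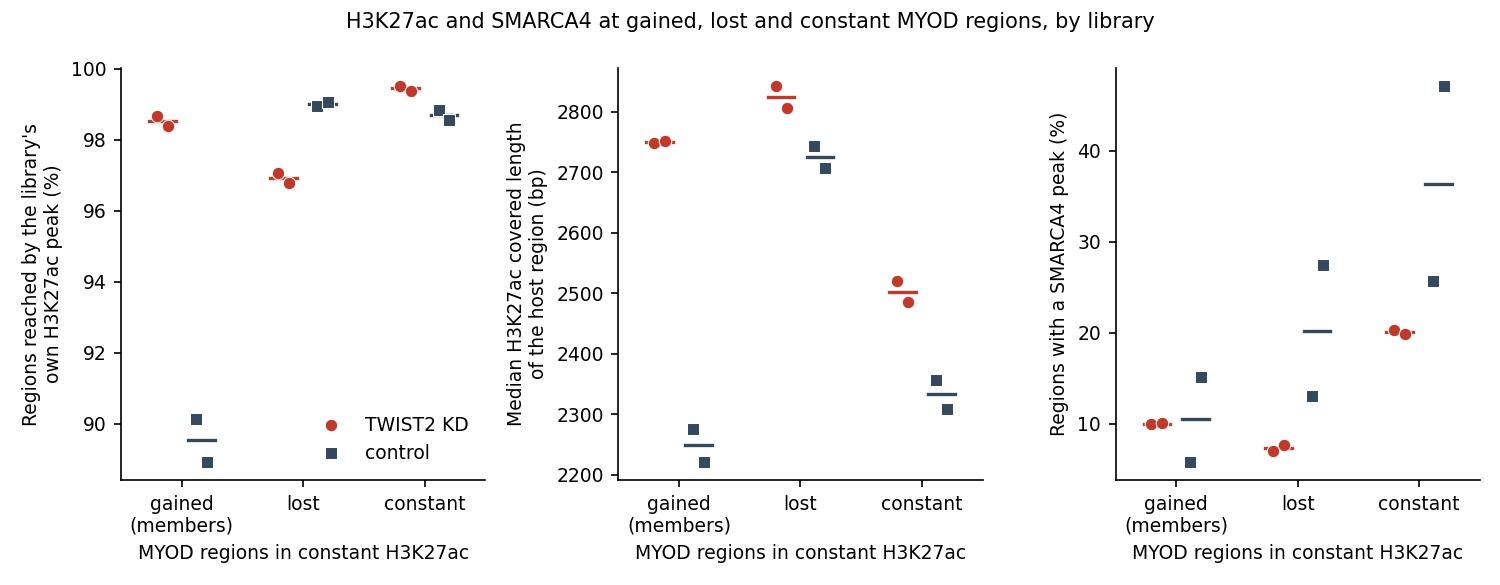
Each point is 1 library and each bar the mean of 2, for gained, lost and constant MYOD regions in constant H3K27ac. The panels give the percentage of regions reached by the library's own H3K27ac peak, the median H3K27ac length of the host in bp, and the percentage of regions with a SMARCA4 peak; the axes do not start at 0. At gained regions KD exceeds control in the first panels, 98.7 and 98.4% against 90.1 and 88.9%, while SMARCA4 in KD falls between the control libraries.

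Host by host, H3K27ac was longer in both KD than in both control libraries at 1000 of 1787 hosts (56.0%), where 45.4% of all constant H3K27ac regions were. It was shorter in both KD libraries at 430 hosts (24.1%), where 29.8% of all were. The ratio of KD mean to control mean was at least 2 at 290 hosts (16.2%), against 7.58% of all constant H3K27ac regions and 2.39% of hosts of lost regions. With only the 1525 hosts of regions that all 4 libraries reached, 51.5% were longer in both KD libraries, 26.3% were shorter and 10.6% had a ratio of at least 2. A greater length in KD was therefore common among hosts of gained regions but not general.

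**Figure D3:**
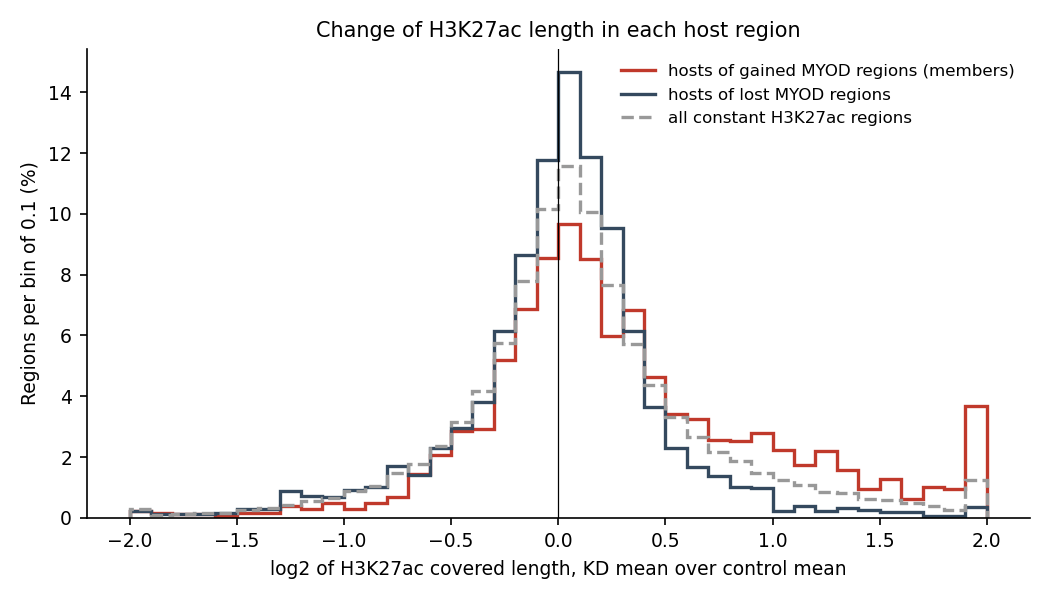
Distribution over host regions of the log2 ratio of H3K27ac length, KD mean over control mean, in bins of 0.1, with values beyond the axis in the end bins. The hosts of gained MYOD regions (red) have a longer right tail, 16.2% at a ratio of at least 2, than all constant H3K27ac regions (dashed, 7.58%) and hosts of lost regions (dark, 2.39%). The rule has a part in this tail. Among the 1525 hosts whose gained region all 4 libraries reached, which are not drawn apart, the share was 10.6%.

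The ratio was larger at hosts that had no MYOD peak in control cells than at the other hosts. In these 540 hosts the median H3K27ac length was 2032.5 and 2010 bp in KD, against 1422.5 and 1346.5 bp in control. KD exceeded control by 636.75 bp, a ratio of 1.46. In the 474 whose gained region was reached by all 4 libraries, the lengths were 1962 and 1937.5 bp in KD, against 1470 and 1430.5 bp in control, a ratio of 1.34 (exact permutation p = 0.33, 2 and 2 libraries). Length was greater in both KD libraries at 66.9% of the 540, and the ratio was at least 2 at 28.3%. The 1247 hosts that already held a control MYOD peak had 3049 and 3064 bp in KD, against 2597 and 2550 bp in control, a ratio of 1.19, and 11% of them had a ratio of at least 2.

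All 3141 constant H3K27ac regions with no control MYOD peak, the 540 included, had 1795 and 1764 bp in KD, against 1462 and 1423 bp in control. Their ratio was 1.23, with 49.5% longer in both KD libraries and 16.4% at a ratio of at least 2. Those without a MYOD peak of any library, 1601 regions, had 1567 and 1564 bp in KD, against 1445 and 1413 bp in control, a ratio of 1.10. The 540 hosts were longer than these regions by 455.75 bp in KD, whereas the difference in control was -44.5 bp. At the opposite end, hosts of lost regions with no KD MYOD peak, 781 in number, had 2337 and 2246 bp in KD, against 2399 and 2278 bp in control. These overlapped, with a ratio of 0.98. The 781 were not limited to regions that all 4 libraries reached. Lost regions that the control peaks alone reached lower this ratio by their choice, so no test is given.

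**Figure D4:**
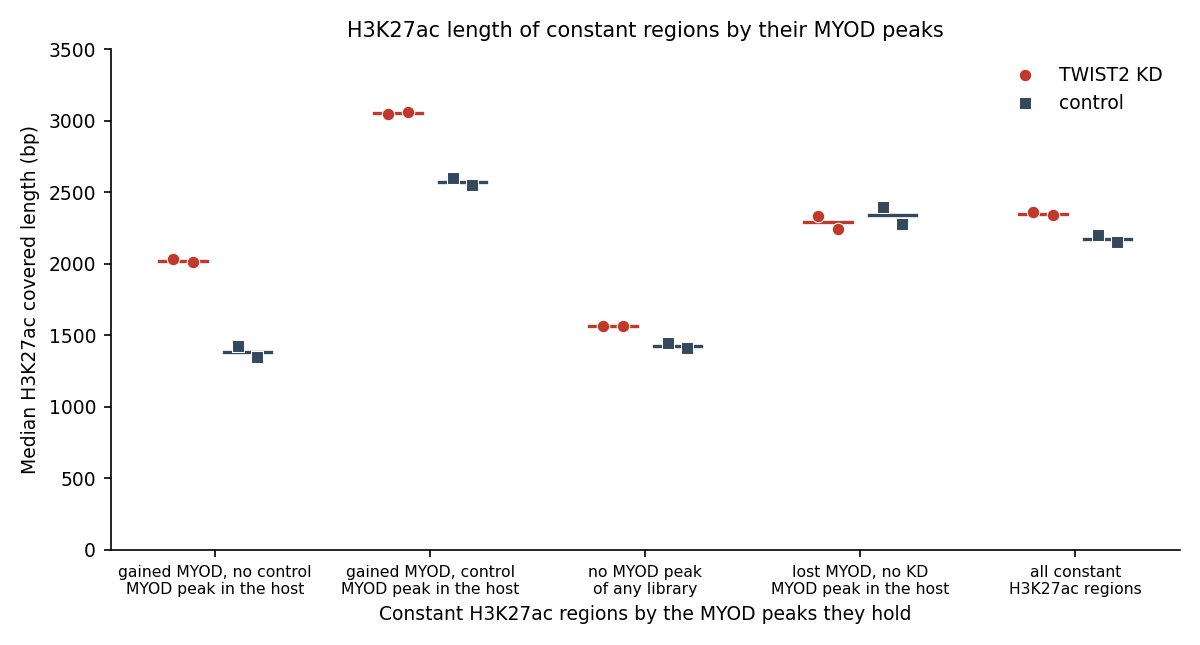
Median H3K27ac length in bp for each H3K27ac library (points, with bars at the mean of 2), KD left of control, for constant H3K27ac regions by the MYOD peaks they hold. The 540 hosts with gained MYOD and no control MYOD peak have a ratio of 1.46, or 1.34 where all 4 libraries reached the gained region. Regions without any MYOD peak have 1.10. Those that lost MYOD and had no KD peak have 0.98, without a restriction to lost regions that all 4 libraries reached.

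Single gained regions showed this range. The region highest in the KD MYOD lists, chr10:80883558-80883792 (hg19), stood at percentiles 99.7 and 99.3, but a control MYOD peak lay 43 bp away, and its host had 13303 and 11822 bp of H3K27ac in KD, against 18089 and 17285 bp in control. The next, chr1:161979373-161979597, lay 1611 bp from a control peak in a host of similar length in both conditions, with 13656 and 13567 bp in KD, against 12773 and 11932 bp in control. At chr6:169473589-169473843 the host had 6062 and 5660 bp in KD, against 1620 and 2253 bp in control, and the peak of control replicate 1 did not reach the MYOD region. At chr10:121173009-121173234 it had 8965 and 8264 bp in KD, against 4828 and 5254 bp in control.

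One region in the top 8 lay outside the KD acetylation peaks. At chr7:101034225-101034492 the host had 4334 and 4412 bp of H3K27ac in KD, against 16236 and 14853 bp in control, and neither KD peak but both control peaks reached the region. MYOD was thus called in both KD lists, at percentiles 98.1 and 98.3, where the KD acetylation peak was missing. It is among the 13 gained regions with that pattern.

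The broadest hosts with a pair of gained regions behaved in like variety. The host at chr11:100742353-100766813 had 24284 and 21682 bp of H3K27ac in KD, against 9027 and 9235 bp in control. That at chr6:76187513-76207115 had 19544 and 17744 bp in KD, against 8045 and 9146 bp in control. The host at chr1:33888530-33903395 was shorter in KD, at 9912 and 9957 bp, against 14286 and 12879 bp in control. At chr15:30172361-30184700, with 12292 and 11772 bp in KD, against 4170 and 4288 bp in control, one of the pair lay outside the control peaks and the other inside them.

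Host acetylation at the gained regions lowest in the lists followed from the rule, and its length is given as a description. At chrX:71549620-71549858, with percentiles of 0.628 and 0.737, the host had 1914 and 1816 bp in KD, against 626 and 501 bp in control. At chr13:27704777-27705023 it had 2138 and 2260 bp in KD, against 1818 and 1403 bp in control. The 454 gained regions highest in the lists were reached by the own H3K27ac peak at 99.3% and 98.5% in KD, against 87.7% and 87.2% in control. For the 454 lowest the shares were 97.6% and 98.5% in KD, against 91.2% and 90.3% in control. Because list percentile followed genome position in places, the highest and lowest sets may also differ in chromosome segment.

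Single SMARCA4 lists had a peak at few of the gained regions in either condition, while 572 (31.5%) had one in at least 1 library. A SMARCA4 peak lay at 9.97% and 10.1% of them in KD, against 5.84% and 15.1% in control. The KD libraries fell between the control libraries, and the means of 10.0 ± 0.0779% in KD and 10.49 ± 6.58% in control (SD, n = 2 each) differed by -0.468 points, with an exact permutation p of 1. The sign depends on the control library, since leaving out control replicate 2, the longest list, gives 4.19 points, and leaving out control replicate 1 gives -5.12 points.

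At lost and constant regions, unlike gained ones, both KD libraries were below both control libraries. Lost regions had a SMARCA4 peak at 6.99% and 7.70% in KD, against 13.0% and 27.5% in control, and constant regions at 20.3% and 19.9% in KD, against 25.7% and 47.1% in control. Over all MYOD regions in constant H3K27ac the shares were 12.4% and 11.9% in KD, against 15.2% and 29.7% in control. The difference between KD and control was 12.4 points higher at gained than at lost regions, since gained minus lost came to 2.68 points in KD and -9.75 points in control (exact permutation p = 0.33, 2 and 2 libraries). It came to 4.84 points without MYOD control replicate 2 and to 7.32 points without MYOD control replicate 1. Regions gained outside constant H3K27ac differed by 5.51 points, with 8.68% and 11.3% in KD and 2.66% and 6.28% in control. SMARCA4 samples came from the other sample set, so MYOD and SMARCA4 were not measured in the same one.

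Reproducible SMARCA4 differences met few gained regions. Among the 48009 merged SMARCA4 regions, 1.91% were KD-only (a peak in both KD lists and no control list), 6.68% were control-only by the same rule turned round, and 1.11% were in all 4 lists. Of the 572 gained regions at any SMARCA4 region, 18 (3.15%) were at a KD-only one, 24 (4.20%) at a control-only one and 4 at one of all 4 lists. Of the 1245 lost regions at any SMARCA4 region, 1.12% were at a KD-only and 11.7% at a control-only one. Of the constant regions at any, 2.24% were at a KD-only and 12.2% at a control-only one.

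Among the 18, those highest in the KD MYOD lists included hosts with far more acetylation in KD and 1 without. At chr9:110039274-110039503 the SMARCA4 peaks stood at percentiles 99.5 and 98.5 of the authors' HOMER score in the KD lists, and H3K27ac covered 5192 and 4973 bp in KD, against 2934 and 2025 bp in control. The KD H3K27ac peaks ran on to 1586 and 1341 bp beyond the centre of the MYOD region, while the control peaks ended 64 bp after it in replicate 1 and short of it in replicate 2. At chr2:187708309-187708540, where the nearest control MYOD peak was 125948 bp away, H3K27ac covered 6322 and 6521 bp in KD, against 501 and 1037 bp in control. At chr10:74020287-74020556, by contrast, lengths overlapped, with 3360 and 3087 bp in KD, against 3399 and 2957 bp in control.

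Gained regions at control-only SMARCA4 regions included chr10:102650436-102650694, with SMARCA4 scores at percentiles 98.8 and 99.6 of the control lists. Its host had 9649 and 9668 bp of H3K27ac in KD, against 14995 and 12718 bp in control, and Ty1 peaks of both libraries lay on it. At chr9:85538488-85538728 the host was longer in KD, at 4549 and 4141 bp, against 3316 and 3617 bp in control. Control-only SMARCA4 and gained MYOD were thus found at the same place with host H3K27ac longer in KD or longer in control.

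**Figure D5:**
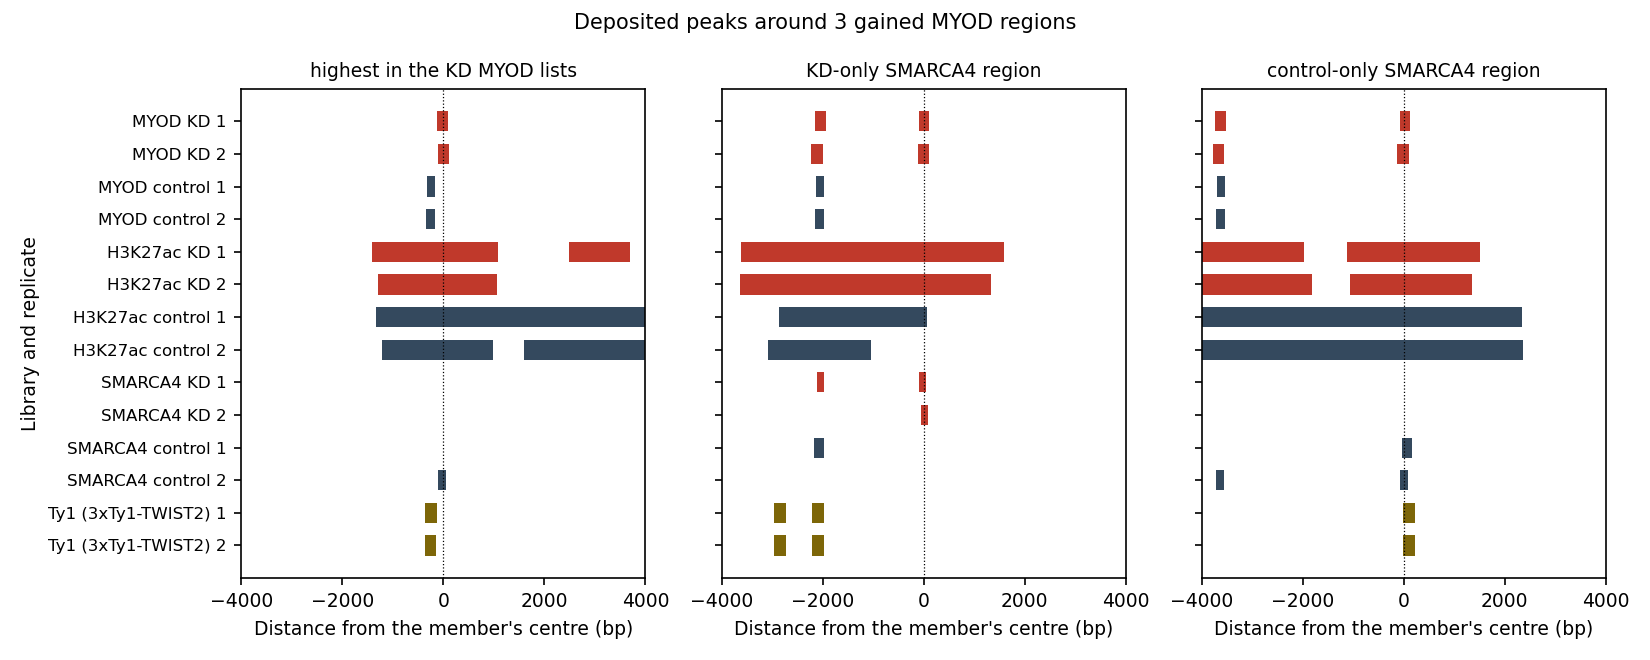
Deposited peaks of every library within 4000 bp of the centre of 3 gained regions (dotted line), KD libraries in red above control in dark, and Ty1 in olive. The left region has a control MYOD peak 43 bp away; the middle one has SMARCA4 in both KD libraries and H3K27ac reaching farther right in KD; the right one has SMARCA4 in both control libraries and a longer H3K27ac peak in control.

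Tagged TWIST2 was found at a minority of the gained regions. Ty1 peaks lay at 35.0% and 34.9% of them in the 2 Ty1 libraries, and a region of both libraries, called a TWIST2 region, at 475 (26.2%, Wilson 95% interval 24.2 to 28.2%). The share was 20.4% at lost regions, 48.7% at constant regions, 24.6% at regions gained elsewhere and 30.2% over all MYOD regions in constant H3K27ac. The counting interval for lost regions was 19.05 to 21.9%, and single Ty1 libraries gave 28.3% and 28.4% at lost regions. Gained regions were wider, with a median of 268 bp against 213 bp for lost regions. A wider region has more room to meet a peak, and the difference in share was not tested. These counts have no library of cells without the tag beside them, and no control-against-KD comparison is possible for Ty1.

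Where both were present, the centres of the gained region and of its TWIST2 region were a median of 63.5 bp apart, against 52.5 bp at lost and 45 bp at constant regions. Over all gained regions, 201 (11.1%) had their centre within 50 bp of that of a TWIST2 region, against 9.97% of lost and 26.1% of constant regions. A SMARCA4 peak of any library lay at 32.2% of gained regions with a TWIST2 region and at 31.2% of those without. In single libraries the shares with a TWIST2 region were 9.68% and 9.47% in KD, against 6.11% and 18.1% in control. Those without had 10.1% and 10.3% in KD, against 5.74% and 14.1% in control, and the differences were not tested. Neither a SMARCA4 nor a Ty1 peak was found at 39.6% of the gained regions, against 37.6% of lost and 13.5% of constant regions.

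Gained regions near to and far from control MYOD binding had unlike shares of TWIST2 and SMARCA4, which were not tested. TWIST2 regions were met by 20.4% of those within 500 bp of a control MYOD peak and by 29.5% of those farther away. SMARCA4 ran opposite, with a peak of any library at 38.8% of the near and 27.2% of the far ones. Among the 1149 gained regions beyond 500 bp, the own H3K27ac peak difference between KD and control was 13.5 points and the host length difference 954.5 bp, as a description, both above the 9.0 points and 501 bp of all 1816.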

How the data were processed

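The series held 24 samples, 14 of them with a peak list, and the 10 input samples were not used. Per the submitters' processing notes, the tools include HOMER 4.4, bedtools 2.29.2, Bowtie2 2.3.4.3 and SAMtools 0.1.19, and the builds are hg19 and GRCh37. The H3K27ac, MYOD and Ty1 lists deposited by the authors hold peak positions alone. The SMARCA4 lists, per the file headers, come from HOMER with a peak score and a normalized tag count, a signal per peak, and the authors' score was used only to rank peaks within a list. Every list was per library.

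Lists were merged and overlapped at 1 bp with Python 3.11.15, numpy 2.4.6 and pandas 2.3.3, after tests on simulated data. Groups came from the labels. KD and control were compared by exact two-sided permutation over 2 and 2 libraries; shares have Wilson 95% intervals (scipy 1.17.1). The steps and the sums of peak lengths move with how many peaks each list holds, so lists cut to equal numbers were among the alternatives. The members and lists were chosen with earlier results of these data known. Regions named were the 8 highest and 4 lowest by mean KD list percentile, the 5 broadest hosts with most members, up to 4 at each kind of SMARCA4 region, and the 4 highest with and without TWIST2; not all of these are described. Replicate numbers showed no pairing in H3K27ac length (r = -0.000575 between KD and control deviations over 27442 regions), and pairing was not checked for MYOD or SMARCA4. Planned gene lists and sequence features were not analysed here, since no genome of the build was used.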

Additional observations from a re-analysis of the deposited data

How the results depend on the processing

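The KD minus control differences in own H3K27ac peak (5.77 to 13.7 points) and in host H3K27ac length (321 to 954.5 bp), and their excess over lost regions (6.94 to 17.2 points and 188.5 to 856 bp), kept their sign under every alternative run, as did the excess in SMARCA4 (4.84 to 17.2 points). The highest length excess, 856 bp, sets gained regions over 500 bp from a control MYOD peak against all lost regions, which were not filtered by distance. The lowest, 188.5 bp, is for regions that every library's H3K27ac peak reached. Every alternative but this last kept the part that the rule has in reach and length, so the shared sign of those differences is a description. In a paired test with a replicate block the exact p was 0.5 for the SMARCA4 excess and 1 for SMARCA4 itself (-0.468 points), where 0.5 is the smallest that 2 pairs allow.

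The SMARCA4 difference itself changed sign. It was 1.94 points with peaks within 500 bp merged, 0.166 with an overlap of at least 0.5 of the shorter interval, 2.88 with equal numbers of peaks per library and 1.61 for members over 500 bp from a control MYOD peak, an alternative chosen after seeing the data, as was that of regions reached by every library. Leaving out single libraries it ran from -5.12 to 4.19 points, and was 0.153 without H3K27ac control replicate 1. The cause was not tested.

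The number of gained regions was 823 in the upper 0.5 of every list and 1149 without those near control peaks, and ran from 1815 to 5964 without single libraries, as fewer lists then decide. The TWIST2 share was 33.7% with peaks within 500 bp merged, 22.3% with the stricter overlap, 29.5% away from control peaks, 44.2% with a peak in at least 1 Ty1 library, and 20.1 to 35.0% without single libraries. With 2 libraries per group and unknown depth for 10 of 14 lists, absence of a peak is not absence of binding. Gene and sequence alternatives were not run.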
